A study of Mus musculus with 2 samples.

Results

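The microRNA genes Mir484, Mir320, Mir1224, Mir877, Mir3102 and Mir702 make their precursors without the usual first cut, and all 6 were counted in the hindbrain of mouse embryos. They were chosen by name, as the capped or Drosha-independent hairpins Mir320 and Mir484 and the mirtrons Mir877, Mir1224, Mir702 and Mir3102, and each matched 1 entry among the 1973 microRNA genes listed. The data are small RNA sequencing of total RNA from hindbrain of B6NCrl embryos at embryonic day 16.5, from healthy animals of both sexes that were pooled, with RNA under 30 nt selected. There is 1 group of 2 biological replicates, so no treatment or genotype was compared. Replicate 2 came from 37 embryos, while the number behind replicate 1 is not given in the sources used here.

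In the canonical route the nuclear enzyme Drosha, with its partner DGCR8, cuts a hairpin out of a long primary transcript, and Dicer then trims that hairpin to the mature microRNA. The capped hairpins skip the Drosha cut because transcription itself sets the ends of the precursor, which carries the cap of an RNA polymerase II transcript. Mirtrons skip it in another way: the spliceosome releases a short intron, the lariat is opened, and the intron folds into a hairpin that Dicer can use.

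RefSeq sequences (GRCm38.p6) were matched for 5 of the 6 genes, with 11 mature sequences in all, and Mir320 was not matched. They are written from the beginning of each strand, and capitals mark the seed, bases 2 to 8, which directs target pairing.
mmu-miR-484: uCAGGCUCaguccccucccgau
mmu-miR-1224-5p: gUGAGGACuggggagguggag
mmu-miR-1224-3p: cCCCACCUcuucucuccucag
mmu-miR-877-5p: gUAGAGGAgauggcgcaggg
mmu-miR-877-3p: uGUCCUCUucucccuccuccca
mmu-miR-3102-5p: gUGAGUGGccaggguggggcug
mmu-miR-3102-5p.2-5p: gGUGGUGCaggcaggagagcc
mmu-miR-3102-3p.2-3p: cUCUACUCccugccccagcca
mmu-miR-3102-3p: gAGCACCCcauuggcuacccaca
mmu-miR-702-5p: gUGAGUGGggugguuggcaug
mmu-miR-702-3p: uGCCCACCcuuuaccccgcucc

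miR-702-5p and miR-3102-5p share the seed UGAGUGG, although their genes lie on chromosomes 5 and 7. Their first 8 bases were identical, and over the 21 positions that both cover, 13 matched without gaps. No other mature sequence of the 1738 in the RefSeq table had that seed. The other 9 sequences shared their seed with 0 others in the table. The files count reads per hairpin and do not separate the arms, so the level of a single mature sequence was not measured.

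The 5p sequence of every mirtron, and for Mir3102 the outer of its 5p sequences, began at the first base of the host intron in the annotation. The hairpins of Mir1224, Mir877 and Mir702 are printed to show this, with the splice donor GU and, where the hairpin holds it, the splice acceptor AG in capitals.
Mir1224: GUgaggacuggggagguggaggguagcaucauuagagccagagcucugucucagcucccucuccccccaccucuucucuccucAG
Mir877: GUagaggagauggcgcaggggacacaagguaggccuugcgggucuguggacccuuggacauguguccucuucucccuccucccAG
Mir702: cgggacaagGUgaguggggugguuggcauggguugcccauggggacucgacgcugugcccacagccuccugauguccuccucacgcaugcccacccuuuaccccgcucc

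Mir1224 (ENSMUSG00000080669.1) lies at chr16:20604452-20604536 (mm10, plus strand) and fills an intron of 85 bases in Vwa5b2 from end to end. Mir877 (ENSMUSG00000077931.1), at chr17:35960730-35960814 on the minus strand, likewise fills an intron of 85 bases of Abcf1, a gene of the ABC protein family that acts in translation. Mir3102 (ENSMUSG00000093296.1), at chr7:100882306-100882409 on the minus strand, fills an intron of 104 bases of Arhgef17. In a further Arhgef17 transcript, annotated as a retained intron, the same bases are exonic.

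Mir702 (ENSMUSG00000076240.1), at chr5:136991433-136991541 on the plus strand, was the exception in its ends. Its annotated hairpin starts 9 bases before an intron of 102 bases in Plod3, an enzyme gene of collagen modification, and stops 2 bases before the end of that intron. The 9 leading bases are therefore exonic, and the acceptor AG lies outside the hairpin. Its 5p sequence nevertheless starts at the first intron base, as in the others.

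The outer 3p sequences stopped at or just before the last base of the intron. miR-1224-3p ended 0 bases before it, miR-877-3p and miR-3102-3p 1 base before it, and miR-702-3p 2 bases before it. The 4 mature sequences of Mir3102 follow each other along its intron: the inner 5p sequence starts 22 bases after the first intron base, directly after the outer one, and the inner 3p sequence starts after 59 bases, ends 24 bases before the last intron base and is followed by the outer one after 80.

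**Figure D1:**
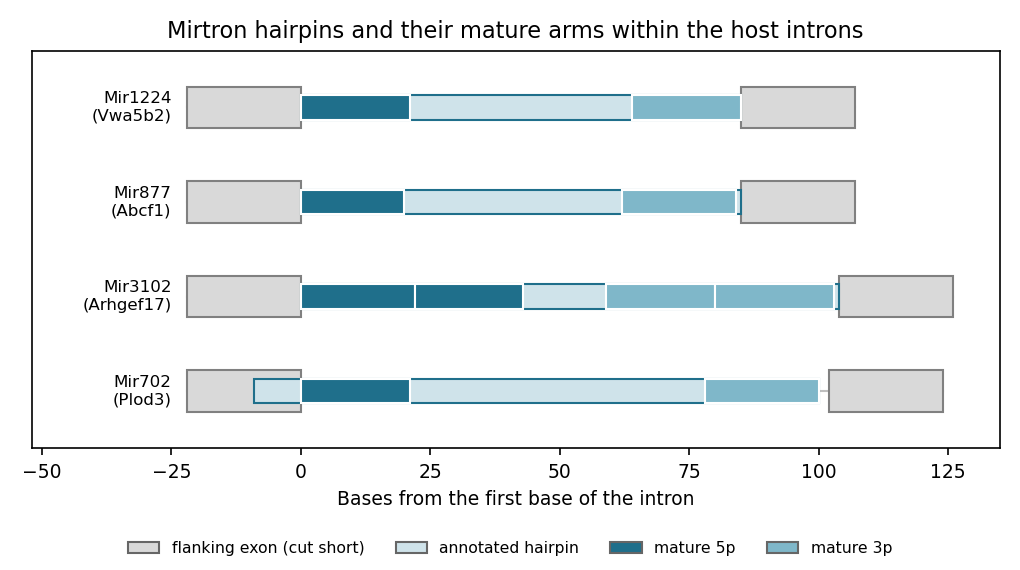
Position of the annotated hairpin and mature arms of the 4 mirtrons within the host intron, in bases from the first base of the intron (0), with the flanking exons cut short. The outer 5p arm of each mirtron starts at 0, the inner one of Mir3102 at 22, and the Mir702 hairpin alone reaches 9 bases into the exon before it.

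The start of an intron also shows in the letters of the 5p arms. miR-1224-5p, miR-3102-5p and miR-702-5p begin with GUGAG, read on the strand of the microRNA, as do 14 (0.806%) of the 1738 mature sequences in the table. Of the 14 genes that make these, 12 have a listed hairpin with both ends within 15 bases of the ends of an annotated intron, against 36 of the 1058 genes with a mature sequence. miR-877-5p begins with GUAGAG instead.

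The arms of the mirtrons also differ from each other in base composition. In the outer 5p arms of Mir1224, Mir3102, Mir702 and Mir877, G made up 61.9%, 59.1%, 57.1% and 55.0% of the bases. The median over all mature sequences was 26.1%. In the 3p arms of Mir877, Mir1224 and Mir702, pyrimidines made up 90.9%, 85.7% and 81.8%, against a median of 50.0%. The outer 3p arm of Mir3102 was less pyrimidine-rich, at 56.5%, while its inner 3p arm reached 76.2%. Introns commonly carry a pyrimidine tract before the acceptor, which the 3p arm of a mirtron can cover. No tract was located in these introns, so its part in the composition was not tested.

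The hairpins of Mir702, Mir877 and Mir1224 were rich in G and C, with 65.1%, 61.2% and 60.0%, against a median of 51.7% over the 1005 hairpins in the table, and Mir484 had 58.2%. The predicted folding energy per 100 bases was -50.4 kcal/mol for Mir1224, -43.5 for Mir702, -42.9 for Mir877 and -36.7 for Mir484, against a median of -40.6. Mir484 therefore had a weaker predicted fold than the median hairpin, and the 3 mirtrons a stronger one. These values are descriptions of the sequences and use no read count.

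Neither capped hairpin had both ends within 15 bases of the ends of an annotated intron on its own strand. Longer introns around them were not searched for. Mir320 (ENSMUSG00000065528.1), at chr14:70443510-70443591 on the plus strand, starts 62 bases beyond the annotated start of Polr3d, a subunit gene of RNA polymerase III that is transcribed the other way. Mir484 (ENSMUSG00000070074.1), at chr16:14159626-14159692 on the plus strand, lies 3582 bases before Nde1, whose product acts with dynein in dividing neural progenitors, and on the strand opposite to Marf1. It overlaps an exon in 1 annotated Marf1 transcript. The mature sequence lies in the first arm of the hairpin, 4 bases from its annotated start, and capitals mark its seed.
Mir484: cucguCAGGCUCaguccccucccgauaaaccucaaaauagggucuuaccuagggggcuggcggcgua

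In level, the capped pair stood far above the mirtrons. Levels are given as CPM, counts per 1000000 counts on the sense strand, and intervals are exact binomial 95% intervals. The intervals allow for counting error within a library only. Reads here carry no molecular identifiers and may repeat a molecule, which the intervals do not allow for either. Mir484 had 10580 counts in replicate 2 and 11439 in replicate 1, or 2372 CPM (2327 to 2417) and 2244 CPM (2203 to 2286). Its mean was 2308 ± 90.2 CPM (SD, n = 2), which placed it 70th in each library among the 1973 genes. The 2 intervals did not overlap, so the libraries differed in Mir484 by more than these intervals allow for.

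Mir320 followed with 3202 counts in replicate 2 and 3685 in replicate 1, or 718 and 723 CPM. Its mean of 720.4 ± 3.64 CPM (SD, n = 2) placed it 107th, and its intervals overlapped almost wholly.

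The 4 mirtrons lay between 38.6 and 107 CPM in the single libraries. Mir1224 had 478 counts in replicate 2 and 422 in replicate 1, or 107 CPM (97.8 to 117) and 82.8 CPM (75.1 to 91.1), with a mean of 94.97 ± 17.2 CPM (SD, n = 2). Mir877 had 357 and 414 counts, or 80.0 and 81.2 CPM in replicates 2 and 1, with a mean of 80.6 ± 0.842 CPM (SD, n = 2). The Mir877 libraries could not be told apart, while the Mir1224 intervals did not overlap.

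Mir3102 had 172 counts in replicate 2 and 303 in replicate 1, or 38.6 CPM (33.0 to 44.8) and 59.4 CPM (52.9 to 66.5), with a mean of 49.0 ± 14.8 CPM (SD, n = 2). Mir702 had 176 and 244 counts, or 39.5 CPM (33.8 to 45.7) and 47.9 CPM (42.1 to 54.3), with a mean of 43.7 ± 5.95 CPM (SD, n = 2). The Mir3102 intervals did not overlap, and the Mir702 intervals did. The mirtrons ranked 217th, 230th, 249th and 254th by mean CPM, in the order Mir1224, Mir877, Mir3102 and Mir702.

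**Figure D2:**
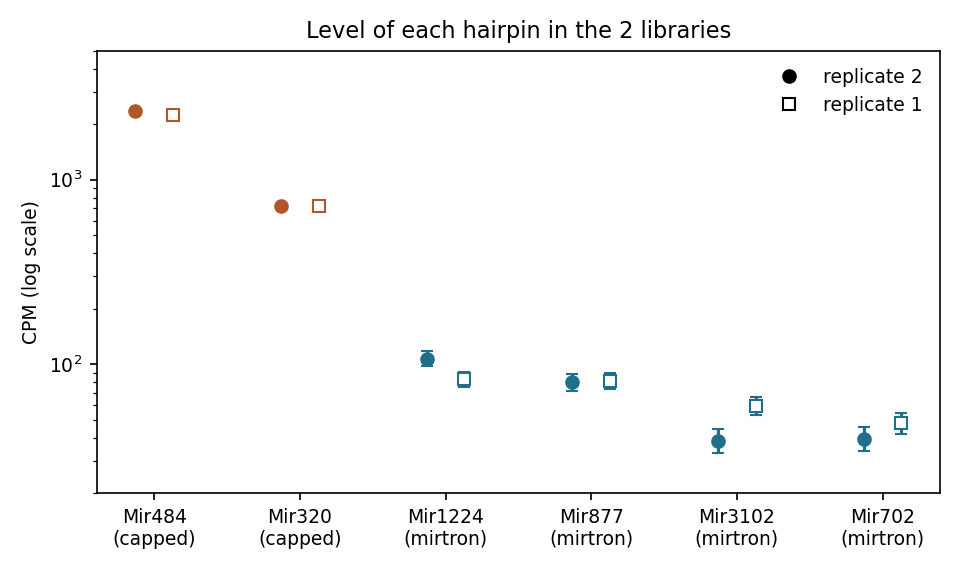
CPM (log scale) of the 6 hairpins in replicate 2 (filled circles) and replicate 1 (open squares), with exact binomial 95% intervals. Mir484 and Mir320 sit at 718 CPM or more in both libraries, and the 4 mirtrons between 38.6 and 107 CPM.

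All 6 were detected, meaning at least 10 counts in both libraries, as were 385 (19.5%) of the 1973 listed genes. The median of the 6 means was 87.8 CPM, against 150.2 CPM over the 385 detected genes and 0 CPM over all listed genes. The capped pair was thus above the detected median and each mirtron below it. In bulk tissue, more cells with a microRNA and more copies per cell cannot be told apart.

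**Figure D3:**
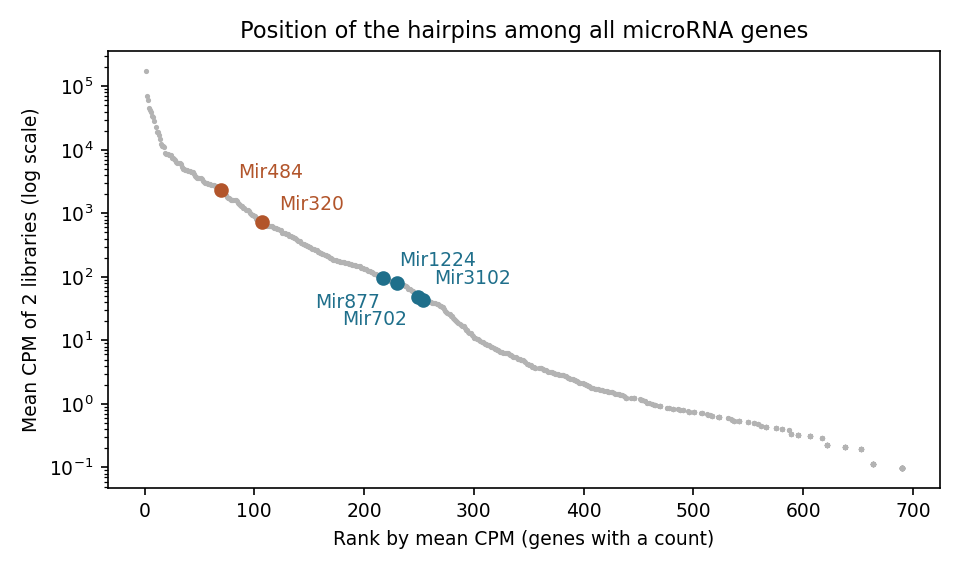
Mean CPM of the 2 libraries (log scale) against rank for every microRNA gene with a count, with the 6 hairpins marked. Mir484 and Mir320 stand at ranks 70 and 107 and the mirtrons at ranks 217 to 254.

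The 6 hairpins together held 0.335% of the sense counts in replicate 2 (interval 0.330% to 0.341%) and 0.324% in replicate 1 (0.319% to 0.329%), a mean of 0.330% ± 0.00822 (SD, n = 2). With multimapping reads in the total the mean share was 0.188%, and each CPM was lower by about the same proportion, 1315 CPM in place of 2308 CPM for Mir484. The capped pair supplied 0.309% and 0.297%, and the 4 mirtrons 0.0265% and 0.0271%. In replicate 2, 70.7% of the members' counts came from Mir484, 21.4% from Mir320 and 7.91% from the mirtrons, and in replicate 1 the shares were 69.3%, 22.3% and 8.38%. The summed counts of the capped pair were 11.7-fold those of the mirtrons in replicate 2 (interval 11.0 to 12.4) and 10.9-fold in replicate 1 (10.3 to 11.6).

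The order Mir484, Mir320, mirtrons was the same in both libraries, but the order among the mirtrons was not. A pair was called apart when the log2 ratios of both libraries had 1 sign and a mean of over 2 SD. The smallest p that an exact sign-flip test allows with 2 libraries is 0.5, so no p is given. Mir484 exceeded Mir320 by a log2 ratio of 1.68 ± 0.06 (SD, n = 2), a 3.20-fold difference, and Mir320 exceeded Mir1224 by 2.94 ± 0.27, a 7.65-fold difference. Both of these neighbours in the order were apart.

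The neighbours among the mirtrons were not apart. Mir1224 over Mir877 gave a log2 ratio of 0.22 ± 0.28, Mir877 over Mir3102 0.75 ± 0.43 and Mir3102 over Mir702 0.14 ± 0.24 (SD, n = 2 each). The last ratio changed sign, at -0.03 in replicate 2 and 0.31 in replicate 1. Of the mirtron pairs further apart in the order, Mir1224 over Mir702 (1.12 ± 0.46) and Mir877 over Mir702 (0.89 ± 0.18) passed, and Mir1224 over Mir3102 (0.98 ± 0.70) did not. A factor shared by both libraries, such as a ligation or mapping bias, would not show in this spread.

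The genes nearest in mean level, given as a description over 2 libraries, were of mixed kinds. Mir484 ranked between Mir107 (2370.0 ± 156 CPM) and Mir433 (2177 ± 474 CPM), and Mir320 between Mir186 (722 ± 7.14 CPM) and Mir676 (717 ± 31.6 CPM). Mir1224 followed Mir196b (101 ± 96.0 CPM), whose libraries were far apart, and preceded Mir24-2 (92.7 ± 0.745 CPM). Mir24-2 has a sister copy, Mir24-1, so its level is uncertain. Mir877 stood between Mir326 (81.9 ± 13.5 CPM) and Mir3059 (79.1 ± 4.19 CPM), and Mir3102 between Mir1249 (49.7 ± 2.72 CPM) and Mir679 (47.7 ± 9.42 CPM). Mir702 stood between Mir152 (44.4 ± 4.40 CPM) and Mir362 (43.6 ± 6.84 CPM). These genes were picked as the nearest in mean CPM, so their closeness to the members follows from the choice (SD, n = 2 each).

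Mir451a, a hairpin of red cells that skips Dicer and is cut by Ago2 instead, had 113 CPM (103 to 123) in replicate 2 and 97.9 CPM (89.5 to 107) in replicate 1. These values were above each mirtron in each library, but the intervals of Mir451a and Mir1224 overlapped in both. The part of blood in the level of Mir451a, and in those of the other 6, was not tested. Mir1839 and Mir664, from precursors that resemble small nucleolar RNAs, were not analysed here.

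To compare the libraries, each gene's counts were set against TMM-scaled totals in a two-sided exact binomial test with Benjamini-Hochberg adjustment. The test speaks of these 2 libraries, not of a condition, and allows for counting noise only. Of the 6 hairpins 3 passed, Mir484 and Mir1224 higher in replicate 2 and Mir3102 higher in replicate 1. Of all 401 genes tested, 46.4% passed, 21.9% higher in replicate 2 and 24.4% higher in replicate 1, so 3 of 6 is near the background. With plain totals 193 passed in place of 186, 62 higher in replicate 2 and 131 in replicate 1, against 88 and 98, and the same 3 hairpins were called.

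Mir3102 moved most, with a log2 ratio of replicate 2 over replicate 1 of -0.56 (interval -0.84 to -0.29; adjusted p = 0.000135, exact binomial test), or 1.47-fold higher in replicate 1. Of all tested genes, 88.5% differed less than Mir3102. Mir1224 moved the other way, by 0.44 (0.25 to 0.63; adjusted p = 2.3e-05), which is 1.35-fold higher in replicate 2. The counts of these mirtrons thus moved in opposite directions between the libraries. A difference between the pools cannot be told apart from one of library preparation.

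Mir484 differed by a log2 ratio of 0.14 (0.11 to 0.18; adjusted p = 7.13e-13, exact binomial test). It had the most counts of the 6, and its ratio, 1.11-fold, was smaller than the median absolute log2 ratio of 0.18 over all tested genes. Mir702 gave -0.21 (-0.50 to 0.07), Mir320 0.05 (-0.01 to 0.12) and Mir877 0.04 (-0.16 to 0.25), and these did not pass, with adjusted p of 0.245, 0.215 and 0.806 in the exact binomial test. The ratios of Mir320 and Mir877 turned to -0.01 and -0.02 with plain totals. The median absolute ratio of the 6 was 0.18, the same as over all genes at this precision.

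When a biological spread was allowed for, none of the 6 passed. With the biological coefficient of variation assumed to be 0.1, the exact test of edgeR called 0 of the 6 and 7 (1.75%) of the 401 genes, with adjusted p of 0.417 for Mir3102, 0.620 for Mir1224 and 0.975 for Mir484. At an unadjusted p under 0.05 it held 1 of the 6, Mir3102, and 34 of all genes.

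**Figure D4:**
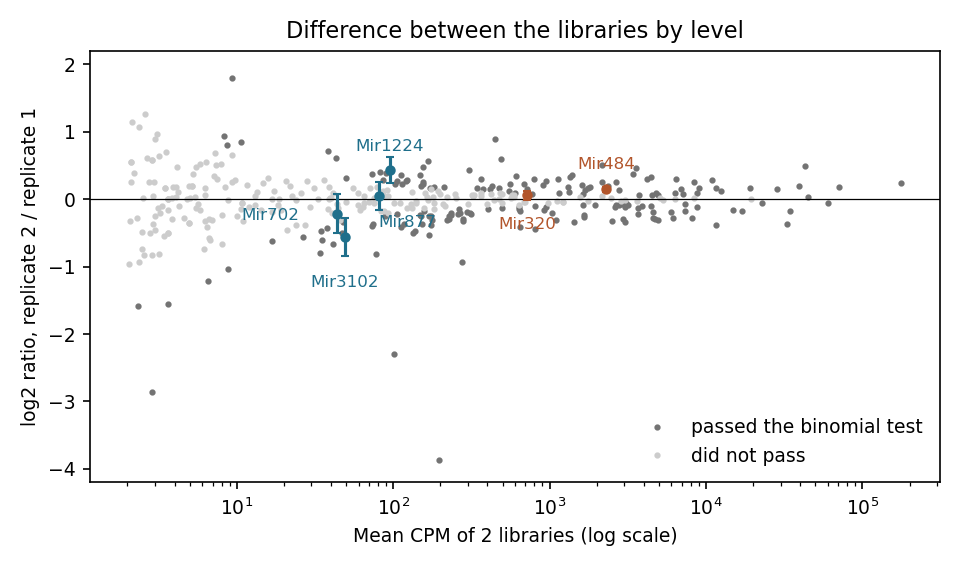
Log2 ratio of replicate 2 over replicate 1 after TMM scaling against mean CPM (log scale) for the 401 tested genes, with the 6 hairpins in colour and their exact binomial 95% intervals. Mir1224 lies above 0 and Mir3102 below it, within the cloud of genes of similar level.

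Other listed hairpins also have their ends at or near both ends of an intron. Among 1894 genes with coordinates, 41 had both hairpin ends within 15 bases of the ends of 1 annotated intron on the same strand, and 22 matched the intron exactly. The introns were 66 to 137 bases long. Besides Mir1224, Mir877, Mir3102 and Mir702, all detected, the set held 37 hairpins, of which 7 were detected and 29 had a count in at least 1 library, with a median of 0.532 CPM. This search and its limit were chosen after the levels were known, and the 4 mirtrons were chosen by name, so no test was made of their higher level.

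The 4 mirtrons held 65.0% of the counts on these 41 hairpins in replicate 2 and 62.7% in replicate 1. The 2 other hairpins at a like level, singled out after their values were seen, were Mir1981, in an intron of the mitochondrial enzyme gene Marc2, and Mir6944, in an intron of Dbn1, which encodes the actin-binding neuronal protein drebrin. Mir1981 had 254 and 339 counts in replicates 2 and 1, a mean of 61.7 CPM, and Mir6944 had 177 and 261 counts, a mean of 45.4 CPM. Mir6944 and Mir702 were close in both libraries, with 177 against 176 counts in replicate 2 and 261 against 244 in replicate 1. The next hairpin, Mir3547 in Baiap3, reached 9.33 CPM.

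**Figure D5:**
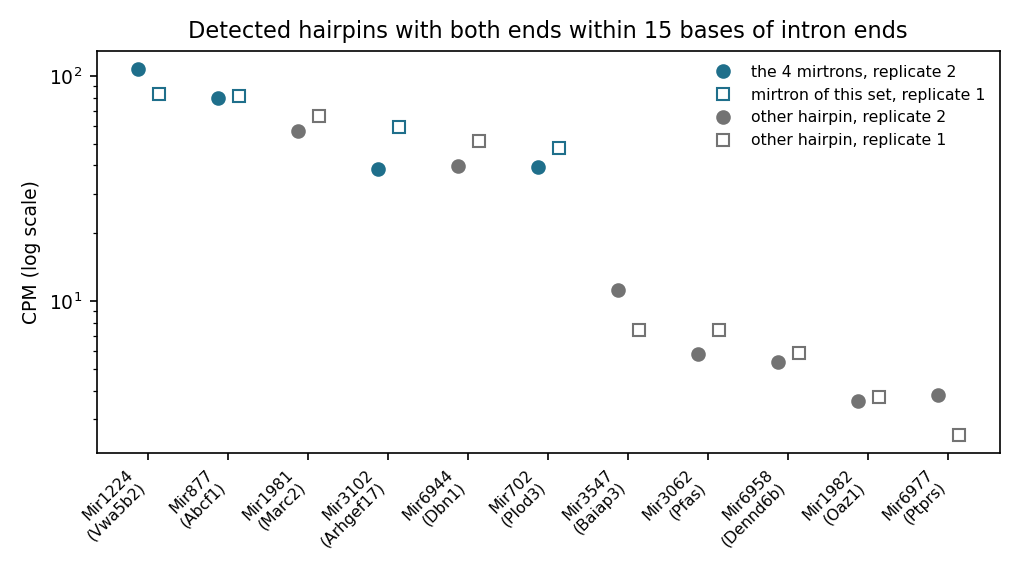
CPM (log scale) in replicate 2 (filled circles) and replicate 1 (open squares) of the 11 detected hairpins whose ends both lie within 15 bases of the ends of an annotated intron, with the host gene in brackets. The 4 mirtrons are blue and all other hairpins grey. The mirtrons, Mir1981 and Mir6944 lie at 38.6 CPM or more and the remaining 5 hairpins at 11.2 CPM or less.

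Several values bear on how far these counts stand for the mature microRNAs. Reads on the opposite strand of all 6 genes were 0 in both libraries, a limit of 3 counts, or 0.673 CPM for replicate 2 and 0.589 CPM for replicate 1. None of the 6 overlapped another listed hairpin, and the nearest, at Mir484, was 30994 bases away. In GENCODE transcripts, each of the 11 mature sequences had an exact match only in its own gene and, for Mir3102, in the host Arhgef17. The genome itself was not searched. A count cannot tell a mature arm from another piece of the same intron of under 30 nt, and the part of such pieces was not tested.

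Replicate 2 held 9729498 reads with 4460836 sense counts, and replicate 1 held 11018624 with 5097205. The hindbrain label was checked with the Hox-cluster microRNAs Mir10a (57854 and 63004 CPM in replicates 2 and 1) and Mir10b (28014 and 37989 CPM). Other Hox-cluster microRNAs were lower, with Mir615 at 961 and 1249 CPM, Mir196b at 32.7 and 169 CPM and Mir196a-2 at 6.73 and 4.90 CPM. These values alone do not settle the label. Mir122 of liver, at 41.9 and 41.0 CPM, and Mir223 of myeloid cells, at 152 and 188 CPM, were far lower than Mir10a and Mir10b. Vascular Mir126a was not, at 29178 and 27475 CPM. Mir206 of skeletal muscle had 24.2 CPM in replicate 2 and 370 CPM in replicate 1, so the libraries differed in this marker. The part of muscle tissue in the differences of Mir3102 and Mir1224 was not tested.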

How the data were processed

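The authors deposited raw counts of reads for each gene, made on mm10 with GENCODE M4 per the notes beside each sample's table. The aligner and counter were not given in the sources used here. Counts come for either strand and for each strand, and the strand with the larger total was taken as sense. Summary lines that name no gene stayed out of totals: in replicates 2 and 1, reads without a map position were 15.2% and 15.5% of the total, those with several positions 35.1% and 34.5%, and those in no listed gene 2.78% and 2.60%. Gene identifiers were matched without version to GENCODE M21, also on GRCm38, for 1894 of 1973 genes, and coordinates are those of M21.

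The members, lists and tests were chosen with earlier results of these data known. Named were the 6 members, Mir451a as the counted context gene, each member's neighbours in rank and genes with a shared seed. The binomial test covered the 401 genes with 20 or more counts in sum, at an adjusted p of 0.05. It was tested for this comparison on simulated counts of 398 genes with counting noise only. There it called 4 of 199 unchanged genes, and 70.1%, 86.4% and 93.9% of genes with a change of 1.25-, 2- and 4-fold. Such counts hold only the noise that the test assumes, so these rates do not carry over to libraries with further spread. edgeR's quasi-likelihood test needs a contrast and was not run with 1 group. Alternatives were either-strand counts, other totals and scalings, other count minimums, single replicates, and the exact test of edgeR with the biological coefficient of variation (BCV) assumed to be 0.1. Python 3.11.15, scipy 1.17.1, R 4.3.3, edgeR 4.0.16, DESeq2 1.42.0 and RNAfold 2.7.2 were used.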

Additional observations from a re-analysis of the deposited data

How the results depend on the processing

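Another total rescales every level, and within a library the order of the 6 is the same by construction. The order by mean CPM is not fixed in this way, but it did not change with the totals used here. With multimapping reads in the total, mean CPM was 1315 for Mir484, 410.4 for Mir320, 54.1 for Mir1224, 45.9 for Mir877, 27.9 for Mir3102 and 24.9 for Mir702, and the shares were 0.188% for all 6, 0.173% for the capped pair and 0.0153% for the mirtrons. Without the most abundant gene, Mir99a, in the total, mean CPM was 2805 for Mir484, 875 for Mir320, 116 for Mir1224, 97.9 for Mir877 and 53.0 for Mir702, and the shares were 0.401%, 0.368% and 0.0326%. With either-strand counts Mir320 had 703 CPM, Mir877 78.7 CPM and the mirtrons a share of 0.0262%. TMM and DESeq2 scaling moved no member's mean CPM by more than its SD, but by construction they barely move a mean of 2 libraries. The SD did change. Under TMM it was 164 CPM for Mir484 in place of 90.2, 19.2 for Mir320 in place of 3.64 and 20.2 for Mir1224 in place of 17.2. For Mir877 it was 1.72 CPM in place of 0.842. It fell for Mir3102, to 13.2 CPM from 14.8, and for Mir702, to 4.56 CPM from 5.95. Leaving out 1 of 2 replicates gives the value of the other library and says nothing of stability. Among the differences between libraries, Mir320 and Mir877 changed sign with plain totals, at log2 ratios of -0.010 and -0.021. Members called stayed at 3 of 6 with either-strand counts, plain totals, DESeq2 scaling, no minimum count and a minimum of 100, and came to 0 with edgeR's exact test at an assumed BCV of 0.1, which called 7 of all genes in place of 186. That test allows for spread beyond counting noise by its construction. No paired analysis was possible because there is 1 group. Depth limits the mirtrons most, with 172 counts for Mir3102 in replicate 2.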
